A study of Mus musculus with 10 samples.

Results

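The genes described here are contractile and cytoskeletal genes used to describe myofibroblasts, from smooth muscle markers such as Acta2, Tagln and Cnn1 to genes that many non-muscle cells also express, such as Cnn2, Myh9 and S100a4. They are 10 genes taken by symbol from a count table of 50763 genes, namely Acta2, Tagln, Cnn1, Cnn2, Myl9, Tpm1, Tpm2, Actn1, Myh9 and S100a4, and all 10 have a row in it. Of these, 9 had enough reads to be tested. Cnn1 did not reach 2 FPKM (read pairs per kilobase of exon, scaled to a common depth) in any library and is given by its counts only.

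A myofibroblast pulls on its matrix with bundles of actin and non-muscle myosin II into which α-smooth muscle actin is built. In the lens, TGF-β turns epithelial cells under the anterior capsule into such cells, and the fibrous plaque they form is an anterior subcapsular cataract. Smooth muscle genes as a class are switched on by serum response factor (SRF), which binds the CArG box and is helped by myocardin or the myocardin-related factors, while TGF-β acts through SMAD proteins.

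RNA was sequenced in 10 libraries of lens epithelial explants from FVB/N mice aged 3 weeks, 3 from wild-type (WT) mice, 3 from OVE853 and 4 from OVE918. OVE853 and OVE918 are homozygous lines carrying a transgene for a constitutively active, secreted human TGF-β1 driven by the αA-crystallin promoter, which acts in the lens, and the WT mice carry none. Each library is a pool, of up to 9 mice for WT, up to 18 explants from 9 mice for OVE853 and up to 14 explants from 7 mice for OVE918, so the p-values measure the spread between pools. The whole explanted epithelium was used, with the plaque as part of it in the transgenic lines, and a larger share of expressing cells cannot be told apart from more RNA per cell.

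Total counts on genes lay between 24073311 and 31908525 per library. Reads assigned to Tgfb1 were at 50.3 to 61.4 CPM (a gene's read pairs scaled by library size and TMM factor) in WT, 337 to 360 in OVE853 and 712 to 877 in OVE918, so the libraries separated as labelled. The paper states that these reads come from the mouse gene and also from the human transgene, whose reads map to it. Of 8 lens epithelium markers, the crystallins Cryaa and Cryab made up at least 97.7% of the summed level, which was 153073 to 158351 CPM in WT, 104062 to 118527 in OVE853 and 128514 to 195330 in OVE918, so that OVE853 lay below WT. The other 6 (Foxe3, Pax6, Cdh1, Prox1, Maf and Slc38a3) summed to 1738 to 2587 CPM in WT, 2421 to 2548 in OVE853 and 1858 to 2515 in OVE918, which overlap. By the FDR alone, 1 of the 8 markers was lower in OVE853 and 2 were lower in OVE918, and 0 were higher. Over all genes, 7.69% and 11% were lower. Cdh1 was lower in both lines (333, 196 and 217 CPM), and Slc38a3 was at 186, 157 and 110 CPM. WT replicate 3 stood apart by its retinal neuron markers, which summed to 886 CPM against 137 and 150 CPM in the other WT libraries. These markers summed to 49.8 to 103 CPM in OVE853, below every WT library. In OVE918 they summed to 39.1 to 150 CPM, which overlapped WT. Of 4 retinal markers tested, 1 was reduced in each line, beside 1.91% of all genes in OVE853 and 3.02% in OVE918. OVE918 replicate 4 had the lowest TMM factor, 0.881, and the highest summed lens fiber markers, 36619 CPM. It was the highest or the lowest library of its group for all 10 genes described here, 7 highest and 3 lowest, whereas it was at 1 end of its group for 71.9% of the 11098 genes tested.

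The sequences just upstream of the start sites are shown because the CArG box is the element by which smooth muscle genes are usually recognised. RefSeq start sites were found for 9 of the 10 genes, and Tagln was not among them. In the 250 bases before the start, a CArG box of the strict form (CC, then A or T bases only, then GG) was present in Cnn2 and Myl9. The strict form was present in 1.47% of 32851 promoters of the same length. A run that differs from the strict form by 1 base was present in Acta2, Myl9 and Tpm1, and in 17.5% of promoters. The letters do not decide whether SRF binds such a run, so its listing apart does not mean that a gene lacks a working CArG box. The pattern of the element is the same on both strands, although its letters need not be. The runs below are of 30 bases, 5′ to 3′ on the strand of the gene, with the element in capitals.
Myl9, CArG box: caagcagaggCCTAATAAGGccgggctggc
Cnn2, CArG box: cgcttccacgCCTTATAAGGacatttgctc
Myl9, 1 base off: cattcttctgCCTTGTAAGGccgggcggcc
Acta2, 1 base off: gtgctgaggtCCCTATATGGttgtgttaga
Acta2, 1 base off, nearer the start: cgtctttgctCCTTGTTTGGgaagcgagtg
Tpm1, 1 base off: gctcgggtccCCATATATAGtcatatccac
Tpm1, 1 base off, nearer the start: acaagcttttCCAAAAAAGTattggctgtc

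The letters come from RefSeq promoters of GRCm38.p6, and each window was found exactly once in GRCm39, the build of the count table. The run that holds the Myl9 box lies at chr2:156617213-156617242 and the box itself at chr2:156617223-156617232, on the plus strand. The Cnn2 run lies at chr10:79824368-79824397 and its box at chr10:79824378-79824387, on the plus strand. The Acta2 runs lie at chr19:34232838-34232867 and chr19:34232788-34232817 on the minus strand. In the GENCODE vM39 annotation the elements of Acta2, Myl9 and Tpm1 fall inside a 5′ UTR exon of a longer transcript of the same gene, and that of Cnn2 falls outside the exons. Counted from the RefSeq start, the elements begin at base -161 in Myl9, -56 in Cnn2, and -84 and -34 in Acta2. Of the shorter motifs, CATTCC and CAGAC were searched on both strands and TATAAA only on the strand of the gene. CATTCC was present in Acta2 and Tpm1 (12.6% of promoters), CAGAC in Acta2, Myh9 and S100a4 (42.2%) and TATAAA in S100a4 (7.59%). These matches are letters only and no binding was measured.

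In OVE853 against WT, 2 of the 9 genes tested were elevated and 0 were reduced, by the edgeR quasi-likelihood test at an FDR of no more than 0.05 together with a change of 2-fold or more. The elevated genes were Tagln and Myl9. Over all genes tested, 4.42% passed this rule, 2.51% elevated and 1.91% reduced. By the FDR alone, 3 of the 9 were higher, with Tpm2 as the added gene, and 1, Tpm1, was lower. The FDR alone was passed by 15.8% of all genes, 8.11% higher and 7.69% lower. The libraries of OVE853 all lay above those of WT for 4 of the 9 genes (Tagln, Myl9, Tpm2 and Myh9) and below them for 1 (Tpm1), which is the case for 23.4% and 22% of all genes. The 9 genes had a median log2 fold change of -0.02, and all genes one of -0.01.

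In OVE918 against WT, 3 of the 9 genes were elevated, Tagln, Myl9 and Tpm2, and 0 were reduced. The rule was passed by 5.6% of all genes, 2.58% elevated and 3.02% reduced. By the FDR alone, 4 of the 9 were higher, with Acta2 as the added gene, and 1, Tpm1, was lower, while 19% of all genes passed it, 7.99% higher and 11% lower. The libraries of OVE918 all lay above those of WT for 4 of the 9 genes (Acta2, Tagln, Myl9 and Tpm2) and below them for 1 (Tpm1). Over all genes, 27.2% did not overlap, 12.3% higher and 14.9% lower. The median over the 9 genes was a log2 fold change of 0.65, and that over all genes 0.01. The WT libraries are shared by both comparisons. Tagln and Myl9 were elevated in each of them, as were 1.8% of all genes. Tagln reached 2 FPKM in 7 libraries, all of them transgenic, and was at 0.275 to 0.917 FPKM in WT. It thus entered the test only through the groups where it is high. A gene at 2 FPKM in the WT libraries alone could not enter, which limits the comparison with all genes. With filterByExpr, a looser filter, Tagln was also elevated in both lines (FDR 0.0114 and 0.00126).

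**Figure D1:**
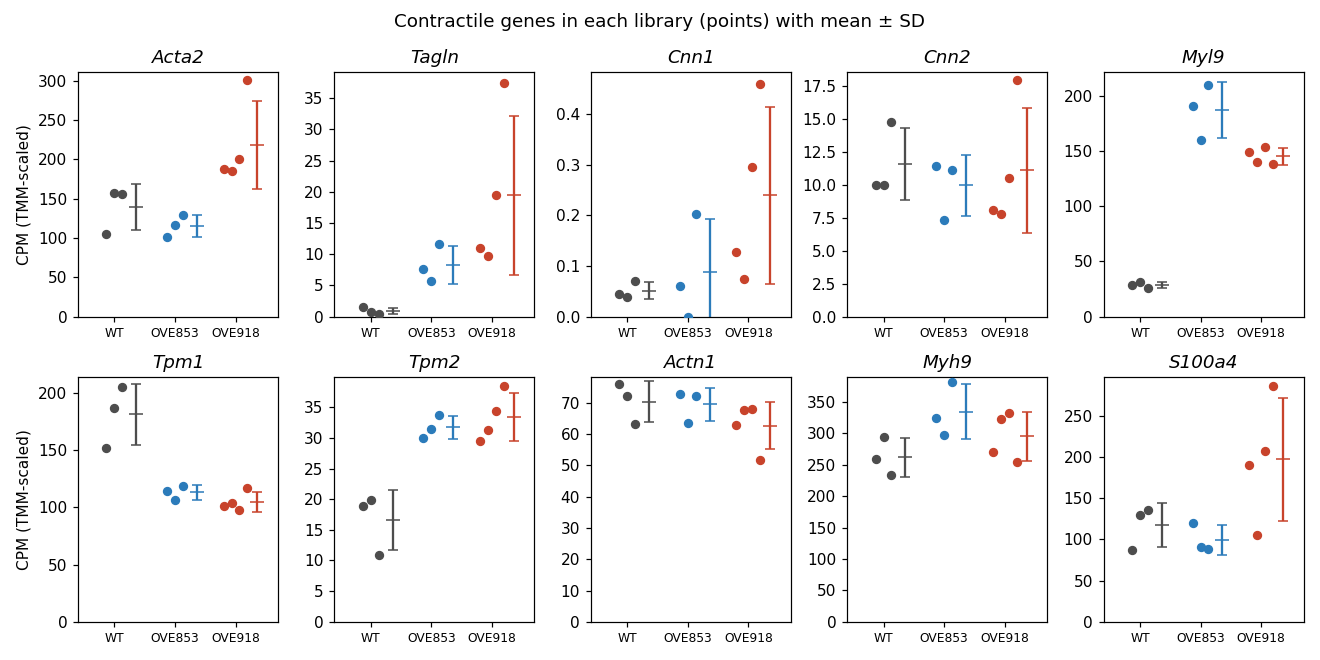
CPM of the 10 genes in each library, 1 panel per gene with a vertical axis from 0, where points are libraries and bars beside them are the mean ± SD of 3 WT, 3 OVE853 or 4 OVE918 libraries. Myl9 rises from at most 31.6 CPM in WT to at least 137.8 CPM in the transgenic lines, Tpm1 is lower in both, and the lower bar of Cnn1 in OVE853 is cut at 0.

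Acta2 encodes α-smooth muscle actin, the usual marker of a myofibroblast, and lies at chr19:34217737-34232990. It was already at 105.3, 157.1 and 155.3 CPM in WT replicates 1 to 3. It was at 101.2, 116.6 and 129.0 CPM in OVE853, which overlap the WT values, and at 187.1, 184.7, 200.1 and 301.0 CPM in OVE918, where all 4 libraries lay above every WT and OVE853 library. OVE853 and WT were not distinguished (log2 fold change -0.27, 95% interval -0.73 to 0.19, FDR 0.383). In OVE918 the level was 1.57-fold that of WT (log2 0.65, interval 0.21 to 1.09, FDR 0.0440), past the FDR but under the minimum fold change. This result sat at the threshold. The FDR was over 0.05 when any of WT replicates 1, 2 or 3, any of the 3 OVE853 libraries, or OVE918 replicate 1, 3 or 4 was left out (0.0508 to 0.108), and the log2 fold change was 0.45 without OVE918 replicate 4 and 0.48 without WT replicate 1. Between the lines, OVE918 was 1.89-fold OVE853 (log2 0.92, interval 0.48 to 1.36, FDR 0.0552), which did not pass.

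Relative to the other actins, Acta2 remained a small share. By FPKM it made up 5.86 ± 1.67% (SD, n = 3) of the 6 actins in WT, 4.76 ± 0.56% (n = 3) in OVE853 and 7.15 ± 1.40% (n = 4) in OVE918, and the ranges of WT and OVE918 overlapped. The cytoplasmic actins Actb and Actg1, which every cell uses, were at 1016 and 633 CPM in WT and did not pass the FDR in either line. The muscle actins Actg2, Acta1 and Actc1 were all under 1 CPM in every library, and Actg2, the enteric smooth muscle actin, had 0 counts in the WT libraries.

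Tagln encodes transgelin (SM22α), an actin-binding protein that appears early in smooth muscle differentiation, and lies at chr9:45840909-45847404. Its reads numbered 34, 19 and 13 in WT, 256, 153 and 342 in OVE853, and 257, 264, 528 and 814 in OVE918. On the CPM scale this is 1.51, 0.727 and 0.454 in WT, 7.70, 5.64 and 11.6 in OVE853, and 10.96, 9.79, 19.5 and 37.4 in OVE918. Every transgenic library was above every WT library, and the lines overlapped each other. It had the widest fold interval of the 9 genes against WT, 3.48 to 25.8 in OVE853 (FDR 0.0104) and 8.19 to 59.5 in OVE918 (FDR 0.00109). Between the lines the log2 difference was 1.22 (interval 0.10 to 2.34) and did not pass (FDR 0.191). In spite of the rise, Tagln stayed a minor transgelin, at 1.28 ± 0.88% of the FPKM of Tagln, Tagln2 and Tagln3 in WT, 6.30 ± 1.61% in OVE853 and 11.2 ± 5.47% in OVE918.

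Calponins bind actin and slow the myosin ATPase. Cnn1, the smooth muscle calponin at chr9:22010512-22020926, had 1, 1 and 2 counts in WT, 2, 0 and 6 in OVE853, and 3, 2, 8 and 10 in OVE918. The WT counts are all under the floor of 3 counts per library, so no fold is given. After scaling, all OVE918 libraries lay above all WT libraries, though the nearest libraries of the 2 groups both had 2 counts. Of the genes tested, 12.3% lay higher in this way. With no filter on low expression its FDR was 0.747 in OVE853, 0.247 in OVE918 and 0.606 between the lines, so that no difference passed at these low counts. Cnn2, a calponin of many non-muscle cells at chr10:79824410-79831896, was at 10.0, 9.99 and 14.8 CPM in WT, 11.5, 7.30 and 11.1 in OVE853, and 8.06, 7.82, 10.5 and 18.0 in OVE918. The 3 groups overlapped. The log2 fold change was -0.22 (interval -0.92 to 0.48, FDR 0.650) in OVE853 and -0.07 (interval -0.72 to 0.59, FDR 0.899) in OVE918. The non-muscle calponin Cnn3, named after its values were seen, held 98.8% of the FPKM of the 3 calponins in WT and 98.9% in each line.

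Myl9 encodes the regulatory light chain of smooth muscle and non-muscle myosin II, whose phosphorylation starts contraction, and lies at chr2:156617084-156623579. It was at 28.3, 31.6 and 26.2 CPM in WT, 191.0, 160.0 and 210.1 in OVE853, and 149.0, 139.9, 153.9 and 137.8 in OVE918. The libraries of each group were close together, and each line was far above WT. It rose 6.52-fold in OVE853 (interval 5.42 to 7.85, FDR 7.05e-07) and 5.06-fold in OVE918 (interval 4.24 to 6.04, FDR 1.15e-06). All 4 OVE918 libraries were below all 3 OVE853 libraries, although reads assigned to Tgfb1, transgene included, were higher in OVE918. The Myl9 difference between the lines did not pass (log2 -0.37, interval -0.60 to -0.13, FDR 0.0964).

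Myl9 was the least abundant regulatory light chain of its family by FPKM in WT and the most abundant by mean FPKM in both transgenic lines. By FPKM it was 14.5 ± 1.64% (SD, n = 3) of the sum of Myl9, Myl12a and Myl12b in WT, 53.5 ± 2.88% (n = 3) in OVE853 and 45.1 ± 3.24% (n = 4) in OVE918. Myl12a and Myl12b are close copies of one another, and read pairs that matched both were not counted, which can lower their values and raise the share of Myl9 in every library. They were at 130 and 195 CPM in WT and did not pass the FDR in either line. A heavy chain with which Myl9 pairs, Myh9 (non-muscle myosin IIA, chr15:77644785-77726381), was at 258.5, 294.0 and 232.9 CPM in WT, 324.6, 297.6 and 381.9 in OVE853, and 270.1, 323.3, 332.9 and 254.5 in OVE918. OVE853 lay above WT in every library, by 1.28-fold (log2 0.35, interval 0.04 to 0.67), but did not pass (FDR 0.109), and OVE918 overlapped WT (log2 0.17, interval -0.12 to 0.47, FDR 0.403). OVE853 and WT did not overlap, in either direction, for 45.4% of all genes. The heavy chain Myh10 was at 192 ± 16.3 CPM in WT, 178 ± 6.97 in OVE853 and 148 ± 20.2 in OVE918. Of the heavy chains Myh10 and Myh14, 1 was lower by the FDR in OVE918, beside 11% of all genes, and 0 in OVE853. The smooth muscle heavy chain Myh11 was at most 1.16 CPM in any library.

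**Figure D2:**
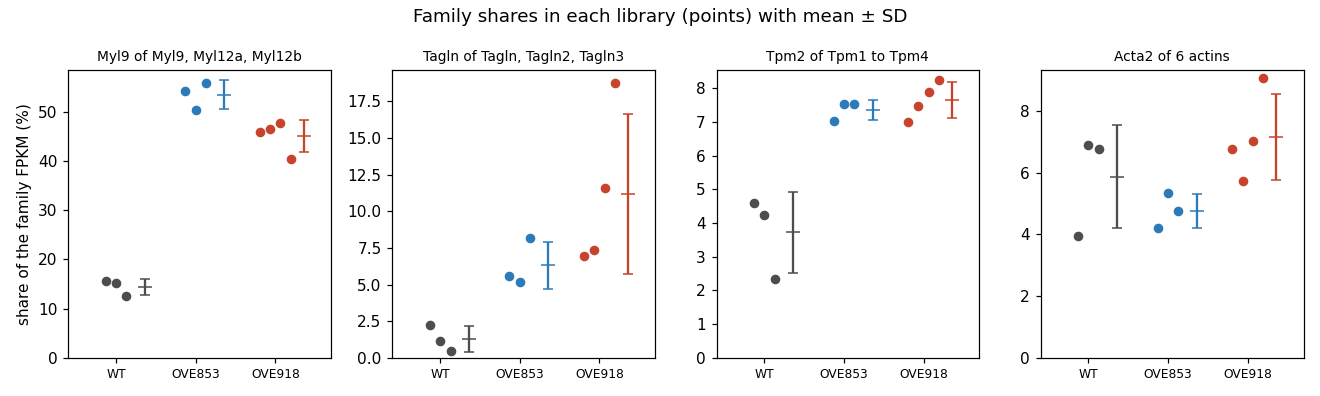
Share of the FPKM of its family held by Myl9, Tagln, Tpm2 and Acta2 in each library, in percent on axes from 0, with points for libraries and bars for the mean ± SD of 3 WT, 3 OVE853 or 4 OVE918 libraries. Myl9 goes from 12.6% to 15.7% in WT to between 40.4% and 56.0% in the transgenic libraries, while the Acta2 shares of WT and OVE918 overlap.

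Tropomyosins run along the actin filament and set which myosins and other proteins reach it. The 2 genes moved in opposite directions. Tpm1 (chr9:66929870-66956953), which encodes α-tropomyosin, was at 152.3, 186.7 and 205.2 CPM in WT, 114.2, 106.2 and 118.7 in OVE853, and 101.1, 103.5, 97.6 and 117.0 in OVE918, with every transgenic library below every WT library. It was 1.60-fold lower in OVE853 (log2 -0.68, interval -0.94 to -0.42, FDR 0.00392) and 1.73-fold lower in OVE918 (log2 -0.79, interval -1.03 to -0.55, FDR 5.8e-04), under the minimum fold change in both. It was the only one of the 9 genes past the FDR in the lower direction.

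Tpm2 (chr4:43514697-43524949), which encodes β-tropomyosin, was at 18.9, 19.9 and 10.96 CPM in WT, 29.97, 31.5 and 33.7 in OVE853, and 29.5, 31.3, 34.4 and 38.5 in OVE918, with every transgenic library above every WT library. It was 1.91-fold higher in OVE853 (interval 1.42 to 2.57, FDR 0.0103) and 2.02-fold in OVE918 (interval 1.52 to 2.68, FDR 0.00325), so the lines fell on either side of the minimum fold change but did not differ (log2 0.08, interval -0.32 to 0.47, FDR 0.815). WT replicate 3, with its high retinal markers, was the lowest WT library. Without it the log2 fold change was 0.69 in OVE853 and 0.77 in OVE918. Without OVE918 replicate 3 or 4 it was 0.999 and 0.94 in OVE918, and in these 3 cases the gene was not elevated by the rule in OVE918, with an FDR of at most 0.0106. Without WT replicate 1 or 2 the OVE853 value was 1.04 or 1.08, and the gene was then elevated there as well.

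Among Tpm1 to Tpm4, Tpm1 held 41.4 ± 3.59% of the FPKM in WT, 27.1 ± 0.75% in OVE853 and 24.8 ± 1.24% in OVE918, and Tpm2 held 3.72 ± 1.21%, 7.37 ± 0.30% and 7.66 ± 0.54%. The annotation lists 80 transcripts for Tpm1 and 43 for Tpm2, and the gene counts do not separate their muscle and non-muscle isoforms.

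Actn1 encodes α-actinin 1, which crosslinks actin filaments and anchors them at adhesions, and lies at chr12:80212233-80307547. It was at 76.0, 72.1 and 63.2 CPM in WT, 73.0, 63.5 and 72.1 in OVE853, and 63.1, 67.7, 68.1 and 51.9 in OVE918, and the 3 groups overlapped. The log2 fold change was -0.02 (interval -0.28 to 0.24, FDR 0.926) in OVE853 and -0.17 (interval -0.41 to 0.08, FDR 0.331) in OVE918, so that a 2-fold change in either direction lay outside both intervals.

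S100a4 encodes a calcium-binding protein that binds non-muscle myosin IIA and is used as a fibroblast marker, and lies at chr3:90511074-90513354. The GENCODE gene Gm42674 overlaps it on the same strand and has no row of its own among the counts, so that reads of the 2 cannot be told apart in the overlap. It was at 87.5, 129.9 and 135.2 CPM in WT, 120.3, 90.3 and 88.1 in OVE853, and 190.4, 104.8, 207.3 and 286.8 in OVE918. OVE918 was high in 3 of its 4 libraries, while replicate 2 fell inside the WT range. The log2 fold change was -0.24 (interval -0.92 to 0.45, FDR 0.608) in OVE853 and 0.75 (interval 0.10 to 1.40, FDR 0.104) in OVE918, and neither passed. The difference between the lines was 0.99 (interval 0.33 to 1.64, FDR 0.107). Without OVE918 replicate 2 it was 1.19 (FDR 0.0326), and OVE918 against WT was 0.96 (FDR 0.0128). Over the 22 other settings, OVE918 against WT ran from 0.47 to 0.96 and passed the FDR in 2. The difference between the lines ran from 0.72 to 1.19 and passed it in 3.

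**Figure D3:**
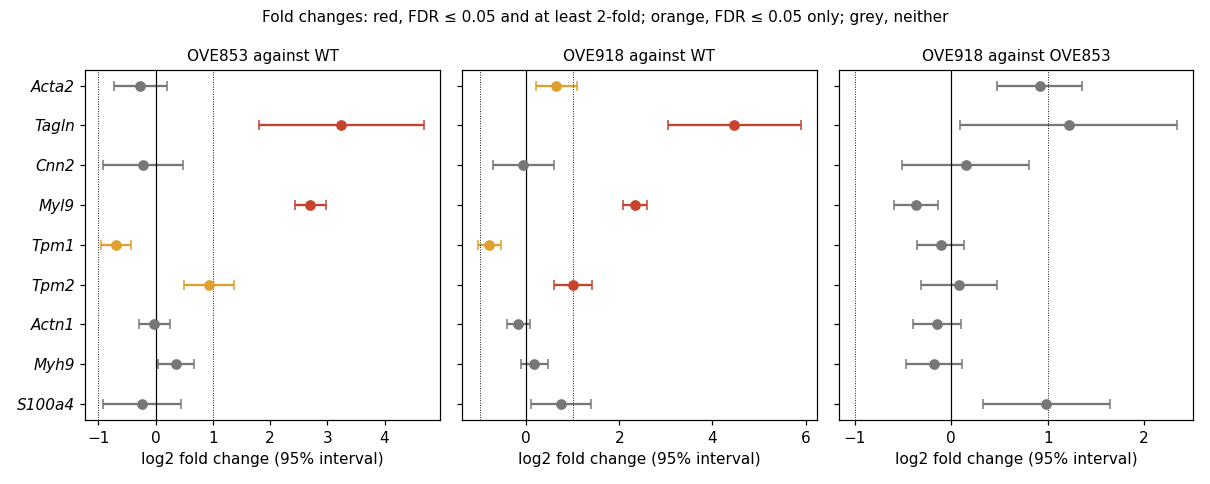
Log2 fold change with its 95% interval for the 9 tested genes in the 3 comparisons, where dotted lines mark the minimum fold change. Intervals of Tagln, Myl9, Tpm1 and Tpm2 exclude 0 in both lines against WT, and none of the 9 genes passed the FDR between the lines.

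Between the lines, 0 of the 9 genes passed the test, nor did any pass the FDR alone, whereas 0.487% of all genes passed the full rule (0.0721% elevated and 0.414% reduced in OVE918) and 1.3% the FDR alone (0.369% higher and 0.928% lower). At an unadjusted level the intervals of Acta2, Tagln, Myl9 and S100a4 excluded 0. Under the 22 other settings, Acta2 passed the FDR between the lines in 7, S100a4 in 3 and Myl9 in 2. With DESeq2 these 3 genes had an FDR of 0.00048, 0.00998 and 0.0307, under the minimum fold change. Libraries did not overlap between the lines for Acta2, higher in OVE918, and Myl9, lower in OVE918, and over all genes this was so for 29.5%, 13.4% higher and 16.2% lower.

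Per length, S100a4 led the 10 genes in all groups, at 234 ± 52.0 FPKM (SD, n = 3) in WT, 198 ± 35.8 (n = 3) in OVE853 and 392 ± 148 (n = 4) in OVE918. In WT it was followed by Tpm1 (55.9), Acta2 (49.9), Myh9 (30.1), Myl9 (20.7), Actn1 (11.2), Tpm2 (4.96), Cnn2 (4.70), Tagln (0.544) and Cnn1 (0.0209). Neighbours in that order overlapped between libraries only for Tpm1 with Acta2 and Tpm2 with Cnn2. Myl9 took the fifth place in WT and the second in both lines, at 135 FPKM in OVE853 and 105 in OVE918. In OVE918 its libraries overlapped those of Acta2, the next in order at 78.3 FPKM. Tagln moved from the ninth place to the eighth in OVE853 (5.03 FPKM), where its libraries overlapped those of Cnn2, the next in order. In OVE918 it moved to the sixth (11.8 FPKM), where its libraries overlapped those of Tpm2 next to it. Tpm1 went from the second place to the fifth in both lines, where its libraries overlapped those of Myh9 just above it. Cnn1 was last in every group.

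**Figure D4:**
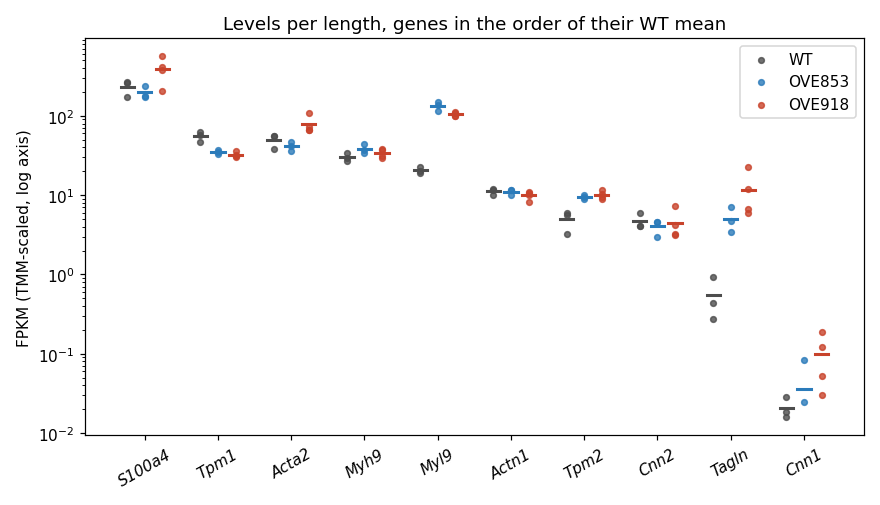
FPKM on a log axis for the 10 genes, ordered by their WT mean, with points for libraries and bars for the group means of 3 WT, 3 OVE853 and 4 OVE918 libraries. Myl9 and Tagln leave their WT places upwards and Tpm1 downwards, and 1 OVE853 library at 0 is not drawn for Cnn1.

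The relatives and partners of these genes were taken as 10 lists holding 69 genes, of which 42 were tested. In each line, 1 was elevated and 2 were reduced, the same 3 genes, while over all genes 2.51% were elevated and 1.91% reduced in OVE853, and 2.58% and 3.02% in OVE918. By the FDR alone, 6 were higher and 7 lower in OVE853 and 7 higher and 8 lower in OVE918, and 0 passed between the lines. The FDR alone was passed by 15.8% of all genes in OVE853 and 19% in OVE918. Their median log2 fold change was -0.06 for OVE853 and 0.07 for OVE918. The elevated gene was Tagln2, a transgelin of non-muscle cells, at 49.9 ± 13.3 CPM in WT, 125 ± 17.7 in OVE853 and 149 ± 16.3 in OVE918 (log2 1.33, SE 0.19, FDR 0.0011, and 1.58, SE 0.18, FDR 1.7e-04). The reduced genes were Tagln3, a transgelin of neurons (log2 -2.58, FDR 0.0383, and -2.12, FDR 0.0440), and S100a1 (log2 -1.39, FDR 0.0068, and -1.12, FDR 0.0086), a calcium-binding protein best known in muscle. The WT level of Tagln3 ran from 6.90 to 50.3 CPM, the highest in WT replicate 3.

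**Figure D5:**
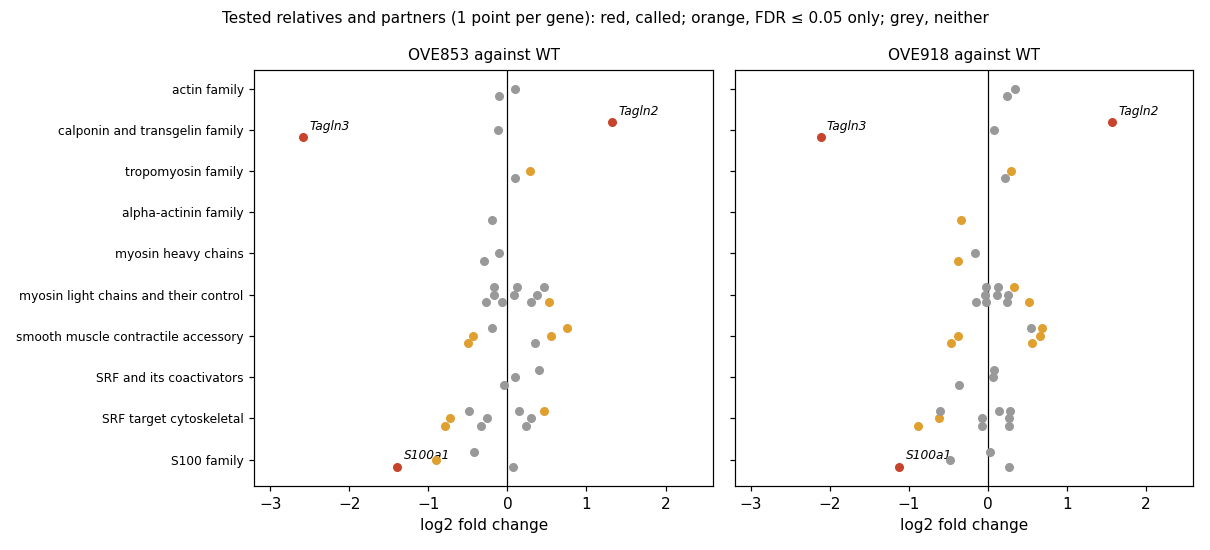
Log2 fold change of the 42 tested relatives and partners, 1 point per gene, in rows by list, for OVE853 and OVE918 against WT. Tagln2, Tagln3 and S100a1 are the called genes in both panels, and points past the FDR alone lie on both sides of 0.

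SRF, the factor that binds the CArG box, was at 31.0 ± 0.58 CPM in WT, 30.05 ± 5.57 in OVE853 and 32.5 ± 8.39 in OVE918 and did not pass the FDR (log2 -0.04, interval -0.47 to 0.39, and 0.07, interval -0.33 to 0.47). Its coactivators Mrtfa (log2 0.40, FDR 0.061, and 0.07, FDR 0.740) and Mrtfb (log2 0.10, FDR 0.766, and -0.36, FDR 0.241) did not pass either. Myocd, which encodes myocardin, was under the expression minimum at 0.471 ± 0.11 CPM in WT, 1.84 ± 0.28 in OVE853 and 0.755 ± 0.34 in OVE918. With filterByExpr, a looser filter, its OVE853 difference passed (log2 1.97, FDR 0.0167). Of the 9 tested cytoskeletal targets of SRF, 1 was higher and 2 were lower by the FDR in OVE853, and 0 and 2 in OVE918. Over all genes, 8.11% were higher and 7.69% lower in OVE853, and 7.99% and 11% in OVE918.

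Among 6 tested accessory genes of the smooth muscle apparatus, 2 passed the FDR higher and 2 lower in OVE853, and 3 higher and 2 lower in OVE918, beside 8.11% and 7.69% of all genes in OVE853 and 7.99% and 11% in OVE918. Named after their values were seen, Smtn (smoothelin) and Pdlim7 were higher in both lines (log2 0.75 and 0.55 in OVE853, 0.66 and 0.68 in OVE918), and Cald1 (caldesmon) was higher in OVE918 (log2 0.56, FDR 0.0046). Pdlim5 and Csrp2 were lower in both. Lmod1 and Synpo2, markers of differentiated smooth muscle, stayed under the minimum, at most at 0.803 and 3.00 CPM in any library. Des, the muscle intermediate filament desmin, was at 0.203 ± 0.13 CPM in WT, 2.16 ± 1.498 in OVE853 and 3.89 ± 1.26 in OVE918. It was tested with filterByExpr only, where it passed in both lines (log2 3.38, FDR 0.0061, and 4.24, FDR 8.4e-04).

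Some markers of other contractile or stromal cells were higher in the transgenic lines, and others were not. The 10 markers of vascular smooth muscle and pericytes summed to 143 to 193 CPM in WT, 256 to 332 in OVE853 and 194 to 247 in OVE918, so that each line lay above WT, as did Myl9 and Tagln. Of the 2 that could be tested, 1 was elevated in each line, Ndufa4l2, and the other, Pdgfrb, was not. Over all genes, 2.51% were elevated in OVE853 and 2.58% in OVE918. With filterByExpr, 3 of the 10 were elevated in each line and 0 were reduced. That filter had 572 of 18058 genes elevated in OVE853 and 623 in OVE918. Without Ndufa4l2 the sums were 115 to 154.2 CPM in WT, 154.3 to 193 in OVE853 and 123 to 159 in OVE918. OVE853 then only just cleared WT, and WT and OVE918 overlapped. Of the markers under the expression minimum, Cspg4 was at 1.05 CPM in WT, 5.58 in OVE853 and 8.94 in OVE918, and passed in both lines with filterByExpr (log2 2.43, FDR 0.0051, and 3.12, FDR 6.1e-04). Notch3 was at 14.8, 15.2 and 6.41 CPM and did not pass (FDR 0.971 and 0.129). Rgs5 was at 5.04, 3.82 and 5.66 CPM and Abcc9 at 11.2, 19.0 and 11.7 CPM, in the same order of groups. Higd1b and Kcnj8 were under 1 CPM in every library and Myh11 was at most 1.16. The 8 markers of iris and ciliary muscle summed to 15.7 to 33.2 CPM in WT, 16.2 to 18.0 in OVE853 and 16.3 to 22.6 in OVE918, which overlap. Chrm3 was the largest part, at a mean of 17.3, 11.2 and 10.1 CPM. It was the only one tested, and was lower by the FDR in OVE918, as were 11% of all genes. With filterByExpr, 2 of 7 were elevated in each line and 0 reduced, with Des among the elevated. Of the 18058 genes tested with that filter, 572 were elevated in OVE853 and 623 in OVE918. The 8 fibroblast markers summed to 265 to 453 CPM in WT, 553 to 610 in OVE853 and 342 to 515 in OVE918, with 0 of 2 tested genes elevated. With filterByExpr, 1 of 5 fibroblast markers was elevated in each line and 0 were reduced. Pdgfra made up at least 94.6% of each sum, and the other 7 summed to 9.00 to 14.4 CPM in WT, 6.12 to 11.6 in OVE853 and 7.26 to 16.4 in OVE918. Of those 7, Cd34 passed in both lines with filterByExpr (log2 1.90, FDR 0.0312, and 2.19, FDR 0.00998), and Clec3b was at 7.28, 3.98 and 6.61 CPM and did not pass.

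The 12 macrophage markers summed to 23.4 to 56.7, 52.2 to 83.4 and 36.1 to 97.9 CPM, the highest in OVE918 replicate 4. Of the 4 tested, 0 were elevated in OVE853 and 1 in OVE918, beside 2.51% and 2.58% of all genes. With filterByExpr, 0 of 12 were elevated in OVE853 and 2 in OVE918. The 8 endothelial markers summed to 59.4 to 143, 45.6 to 63.2 and 54.3 to 72.4 CPM, mostly Kdr, at 112 CPM in 1 WT library, and Egfl7. These full sums overlapped between WT and each line. Egfl7 was at means of 33.0, 28.4 and 33.5 CPM in WT, OVE853 and OVE918, and Vwf at 3.67, 4.66 and 4.79. Without Kdr and Egfl7, left out after values were seen, the sums were 5.51 to 9.92 CPM in WT. They were then 11.8 to 25.3 in OVE853 and 12.4 to 24.7 in OVE918, so that each line lay above WT. Of the 8 markers, 1 was elevated with filterByExpr in OVE853 and 4 in OVE918, and 0 were reduced. With filterByExpr, Cdh5 passed in both lines (log2 2.24, FDR 0.0166, and 1.76, FDR 0.0279), and Pecam1, Tie1 and Cldn5 passed in OVE918 (log2 2.04, 2.01 and 2.03) but not in OVE853. The 6 lymphocyte markers summed to 0.623 to 1.26 CPM in WT, 1.83 to 3.21 in OVE853 and 2.40 to 3.67 in OVE918. Each line lay above WT at these low levels, and 1 of 2 markers tested with filterByExpr was elevated in each line. The part of these cells in the results was not tested.

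Tissue from outside the epithelium was also uneven. The retinal neuron markers, given above, summed to less in every OVE853 library than in any WT library. The 6 markers of non-pigmented ciliary epithelium summed to 162 to 242 CPM in WT, 43.7 to 61.2 in OVE853 and 15.9 to 27.3 in OVE918, and the 6 of pigmented epithelium to 51.1 to 160, 36.7 to 77.0 and 38.3 to 71.0 CPM. The 8 lens fiber markers summed to 13985 to 22537 CPM in WT, 9228 to 21418 in OVE853 and 14574 to 36619 in OVE918. In OVE918, replicates 1, 3 and 4 were above every WT library in fiber markers and in S100a4, and replicate 2 was inside the WT range for both. The part of these tissues in the levels of Tpm1, Acta2 and S100a4 was not tested.

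The genes whose log2 CPM ran most like that of Acta2 over the 10 libraries were Acot13 (Pearson r 0.973), Cstb (0.965) and Tomm7 (0.964). For Tagln they were Eif1a (0.985), Col1a1 (0.984) and Leprot (0.984). For S100a4 they were Txnl4a (0.955), Txndc17 (0.953) and Mrpl32 (0.948). Each r is a description that includes the differences between the groups and was picked as the highest of 11098 genes.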

How the data were processed

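Lens epithelial explants of 3-week-old WT, OVE853 and OVE918 mice gave 10 paired-end RNA-seq libraries. The authors used cutadapt 5.2 for trimming, STAR 2.7.11b for alignment to GRCm39 and featureCounts 2.0.8 in reverse-stranded mode for read pairs per RefSeq gene, and deposited raw counts for 50763 genes. Multimapped pairs were not counted, so close paralogs can lose reads.

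Counts were analysed with edgeR 4.0.16 in R 4.3.3 (limma 3.58.1, DESeq2 1.42.0). All 10 libraries were fitted by group with TMM scaling and robust quasi-likelihood, and p-values were adjusted by Benjamini-Hochberg over the 11098 genes with at least 2 FPKM in 5 libraries. FPKM used GENCODE vM39 exon lengths matched by symbol (7474 genes had none). A gene was elevated or reduced at an FDR of no more than 0.05 together with a log2 fold change of 1 or more in size. Intervals are 95%. No column lacked a sample. Steps were tested on simulated data. The genes and lists were chosen with earlier results of these data known. All 10 genes are named, with called members of the related lists, SRF and its coactivators, defining markers near 0, and the 3 nearest patterns. Family shares, marker sums without their leading genes and the counts of extreme libraries were added after values were seen, and carry no test. Markers given with values were also picked after values were seen. Alternatives were normalization, filters, model and leaving out libraries.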

Additional observations from a re-analysis of the deposited data

Results flagged for a closer look

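Acta2 in OVE918 replicate 4 was at 301 CPM, while the nearest OVE918 library was at 200.1 CPM and the lowest at 184.7 CPM. Its gap to the nearest library was 0.867 of the range of the group, above the critical value of 0.829 for 4 samples. It was the only value of this kind among the 10 genes, and chance gives about 1 in 20 groups. Without this library the log2 fold change of Acta2 was 0.45 against WT (FDR 0.0633) and 0.72 against OVE853 (FDR 0.0741).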

How the results depend on the processing

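Over 27 pairs of gene and comparison and 594 values under other settings, 569 kept their direction and their side of the rule, 8 no longer passed it, 7 newly passed it and 10 changed sign. The elevated calls of Myl9 in both lines and of Tagln in OVE918 held under every setting run. Members called in OVE853 numbered 4 with no minimum fold change and 1 in a test against a fold change of 2, where Tagln had an FDR of 0.115, and in OVE918 they numbered 5 with no minimum fold change. Leaving out 1 library gave 2 to 3 in OVE853, 2 to 3 in OVE918 and 0 to 1 between the lines, where the 1 was S100a4 without OVE918 replicate 2. Tpm2 in OVE918 was not called with the replicate block (log2 fold change 0.95), with voom weights (0.79), in the test against a fold change of 2, or with WT replicate 3 and OVE918 replicate 4 both left out (0.71), a setting chosen after seeing the data. Replicate numbers did not pair the libraries (9 pairs, r -0.30 to 0.08), and with the block 2, 2 and 0 members were called in OVE853, OVE918 and between the lines.

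Sign changes were all of small differences that never passed the FDR. With 1 library left out, the log2 fold change ran from -0.11 to 0.044 for Actn1 in OVE853, from -0.40 to 0.14 for Cnn2 in OVE918 and from -0.18 to 0.28 for Cnn2 between the lines. The last was -0.18 with the replicate block, -0.10 with voom weights and -0.18 with WT replicate 3 and OVE918 replicate 4 both left out. The cause was not tested. Acta2 in OVE918 passed the FDR in 11 of 22 settings (log2 fold change 0.44 to 0.75). Cnn1, at 0 to 10 counts per library, was under the expression minimum.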
